A study of Mus musculus with 4 samples.

Results

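The genes described here encode the proteins with which mouse cells sense, oxidise, conjugate and export foreign compounds. The set was a list of 45 gene symbols, covering cytochromes P450, aldehyde oxidases, flavin monooxygenases and hydrolases, conjugation enzymes, efflux pumps and the receptors that control them. Of these, 42 were found by gene symbol in the annotation of the array, out of 19505 symbols in all, and each had a single probe set. Gsta1, Cyp2c29 and Por had no probe set under those names and were not analysed here. The tissue was cerebellum from male mice of the C57BL/6N strain, 10 weeks old. Clothianidin is a neonicotinoid insecticide that acts on nicotinic acetylcholine receptors. Mice in the clothianidin group (n = 2 arrays, replicates 6 and 7) had received 50 mg per kg per day of clothianidin by mouth for 4 days, and those in the vehicle group (n = 2 arrays, replicates 7 and 9) had received vehicle for 4 days. Both groups were tested on the rotarod, a rotating rod that measures motor coordination, and the brains were taken straight after that test. No label ties each array to a separate mouse, so p-values here reflect only how far the samples spread, and that spread may be technical. Markers of cerebellar neurons were bright on all 4 arrays, with log2 summed levels of 19.26 to 19.86 for granule cells and 19.22 to 19.76 for Purkinje cells.

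Foreign compounds are usually handled in steps. Oxidising and reducing enzymes such as the cytochromes P450, the flavin monooxygenases and the aldehyde oxidases change the molecule, transferases attach glutathione, sulfate or acetyl groups, and pumps of the ABC family carry the products out. Clothianidin is a substrate for both oxidation and reduction, since P450 enzymes remove its methyl group and aldehyde oxidases reduce its nitro group. Most of this chemistry takes place in the liver, while in brain the pumps are best known from the blood-brain barrier. The ligand-activated regulators AHR, PXR (gene Nr1i2) and CAR (gene Nr1i3) switch on many of the enzyme genes in liver. The comparison asked whether the transcripts of this system differ in cerebellum after 4 days of oral clothianidin.

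One member stood apart between the groups. Gstp1, which encodes a pi-class glutathione transferase that joins glutathione to reactive compounds, was at 10.71 and 10.87 on the vehicle arrays and at 11.42 and 12.20 on clothianidin replicates 6 and 7 (log2 values). Both clothianidin values lay above both vehicle values, and replicate 7 was the higher of them. The means were 10.79 ± 0.11 and 11.81 ± 0.55 (SD, n = 2 each), and they differed by 1.02 on the log2 scale (standard error 0.33, 95% interval 0.25 to 1.79), or 2.03-fold on the linear scale. Gstp1 did not pass limma's test over all probe sets (adjusted p = 0.997), and no probe set of the array did. Leaving out clothianidin replicate 7 gave a log2 difference of 0.63, and leaving out clothianidin replicate 6 gave 1.41.

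Gstp1 has a near copy, Gstp2, next to it on chromosome 19, and the 250 bases before both starts are shown because a probe set or a promoter of one gene may not be separable from that of the other. The sequences are from the RefSeq tables of build GRCm38.p6, 5′ to 3′ on each gene's strand, at chr19:4037913-4038162 on the minus strand for Gstp1 and chr19:4042222-4042471 on the minus strand for Gstp2. Capitals mark TGAGTCA, the core bound by AP-1 and related factors, a motif picked after these sequences had been seen.
Gstp1: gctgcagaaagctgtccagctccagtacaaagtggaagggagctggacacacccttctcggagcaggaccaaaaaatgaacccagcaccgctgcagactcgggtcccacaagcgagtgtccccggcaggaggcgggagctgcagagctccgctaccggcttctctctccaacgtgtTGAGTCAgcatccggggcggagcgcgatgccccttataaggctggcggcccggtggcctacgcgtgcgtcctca
Gstp2: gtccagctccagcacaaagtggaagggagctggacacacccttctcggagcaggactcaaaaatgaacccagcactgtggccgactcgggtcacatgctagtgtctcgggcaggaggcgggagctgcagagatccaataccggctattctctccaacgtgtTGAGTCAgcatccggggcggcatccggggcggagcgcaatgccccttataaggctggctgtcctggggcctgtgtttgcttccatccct
The 2 windows were identical at 208 of 235 aligned bases (88.5%). The motif began 74 bases before the start of Gstp1 and 89 bases before that of Gstp2, and on either strand it occurred in 4.46% of 32851 promoter windows of this length. Gstp2, which is not one of the 45 genes, measured 10.11 and 10.52 in the vehicle group against 10.79 and 11.30 in the clothianidin group, so the log2 difference was 0.73 (standard error 0.31, limma adjusted p = 0.997). As with Gstp1, the groups did not overlap and replicate 7 held the highest value. How far the probes of these paralogs read each other's transcript was not tested.

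Over the whole set the groups differed little. With limma, 0 of 42 members passed an adjusted p of 0.05, where 0% of 22206 probe sets did. At an unadjusted limma p under 0.05 there was 1 member of 42 (2.38%), Gstp1, against 4.23% of all probe sets (2.3% higher and 1.93% lower with clothianidin). A reading by size called a gene apart when its groups did not overlap and its means differed by 1.5-fold or more, which held for 1 member of 42 (2.38%), again Gstp1, and for 7.61% of all probe sets. Without a minimum fold, 10 members (23.8%) had groups free of overlap, 5 of them higher and 5 lower with clothianidin, against 30.6% of all probe sets (15.1% higher and 15.5% lower). The mean was higher with clothianidin for 23 members (54.8%), where 48.1% of all probe sets were higher. The median log2 difference was 0.02 over the members and -0.01 over all probe sets, and the median size without regard to sign was 0.19 and 0.21. These shares lay near or under the background, so as a group the members were no more apart than the array as a whole.

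Clothianidin replicate 7 differed from the other arrays in some markers of choroid plexus, the tissue that makes cerebrospinal fluid, and most of all in Ttr. Ttr, the transthyretin gene that is most abundant in choroid plexus, was at 13.96 there and at 5.67 to 6.38 on the other 3 arrays. Of the 13 choroid plexus markers measured, 6 had their highest value there, namely Ttr, Kcnj13 (8.92), Folr1 (6.05), Kcne2, Sostdc1 and Tmem72. Vehicle replicate 7 held the highest value of 5 others. Ttr and Folr1, 2 of the 13 (15.4%), were at least 1.5-fold apart without overlap, against 7.61% of all probe sets. The log2 of the summed level of that list was 10.27 and 9.96 for the vehicle arrays against 10.19 and 14.08 for the clothianidin arrays, and without Ttr it was 10.21, 9.88, 10.08 and 10.46 in the same order. Aqp1, another defining marker, was lowest on clothianidin replicate 7 at 4.23, and Otx2 and Slc4a5 were lowest there as well. Of the 13 markers 7 had a mean no higher than the 95th percentile of olfactory receptor probe sets. Replicate 7 held the highest value of 14 of the 42 members (33.3%) against 21.1% of all probe sets, and replicate 6 that of 4 members (9.52%) against 26.2%. The part of this array's cell mixture in any member's difference was not tested. In whole tissue, fewer cells of a type and less RNA per cell cannot be told apart.

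**Figure D1:**
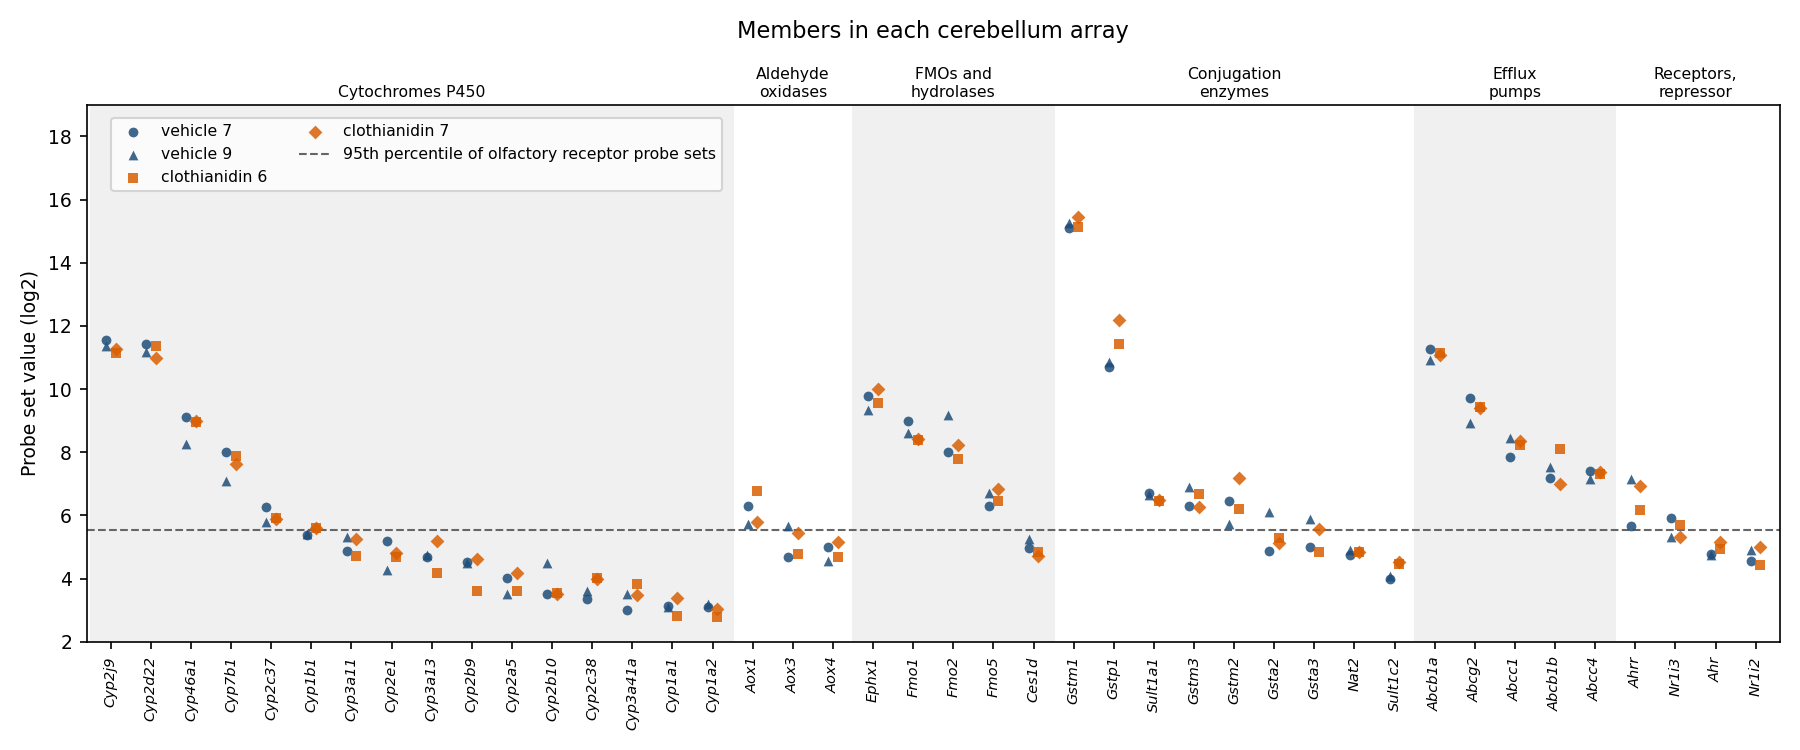
Log2 probe set values of the 42 members on each array, by enzyme class, with vehicle in blue and clothianidin in orange and 1 symbol per array. The dashed line is the 95th percentile (5.53) of olfactory receptor probe sets, and Gstp1 is the only member whose groups stand clearly apart on this scale.

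As a guide to dim signal, the mean levels of 1091 olfactory receptor probe sets, genes hardly used in cerebellum, had a median of 4.09 and a 95th percentile of 5.53. Of the 42 members 22 (52.4%) lay above that value and 20 did not, against 59.4% of all probe sets above it. Probe sets differ in their own brightness, so this places a value on the array and does not rank the genes or show that a transcript is absent. Among the 16 cytochromes P450 the value was exceeded by 5, namely Cyp2j9, Cyp2d22, Cyp46a1, Cyp7b1 and Cyp2c37. All 5 efflux pumps exceeded it, as did Aox1 among the aldehyde oxidases, Ephx1, Fmo1, Fmo2 and Fmo5 in their class, Gstm1, Gstp1, Sult1a1, Gstm3 and Gstm2 among the conjugation enzymes, and Ahrr and Nr1i3 among the regulators. Nr1i3 lay just above it at a mean of 5.57 and Cyp1b1 just under it at 5.50. The list of 12 liver genes had 10 not above it, so the dim P450 values came from a tissue in which most liver markers were dim as well.

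Cytochromes P450 had no common direction, with 7 of 16 (43.8%) higher, against 48.1% of all probe sets. Their median log2 difference was -0.02, and 0 were at least 1.5-fold apart without overlap, against 7.61% of all probe sets. P450 genes above the olfactory receptor reference include enzymes with known brain roles. Cyp46a1, the neuronal enzyme that hydroxylates cholesterol so that it can leave the brain, stood at 9.10 and 8.25 among vehicle arrays and at 8.96 and 9.00 among clothianidin arrays. Vehicle replicate 9 was the low array there, so the log2 difference of 0.31 (standard error 0.34) turned to -0.12 when that array was left out. Cyp7b1, which hydroxylates oxysterols and neurosteroids, was likewise lowest on vehicle replicate 9, at 7.09 against 8.02, 7.88 and 7.62 on vehicle replicate 7 and clothianidin replicates 6 and 7. Cyp2j9, an arachidonic acid hydroxylase of mouse brain, averaged 11.46 ± 0.15 in the vehicle and 11.20 ± 0.08 in the clothianidin group (SD, n = 2 each), with no overlap and a log2 difference of -0.27 whose interval ran from -0.89 to 0.36. Cyp2d22, a drug-metabolising P450 of the 2D family, was at 11.29 ± 0.18 and 11.16 ± 0.28 (SD, n = 2 each).

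The P450 genes that serve in liver as reporters of receptor activation lay among the dim probe sets. The AHR battery was not apart by the 1.5-fold rule. Cyp1a1, the classical AHR target, had vehicle values of 3.12 and 3.10 and clothianidin values of 2.80 and 3.39, a log2 difference of -0.01 with an interval of -0.71 to 0.68. Cyp1a2, its neighbour in function, was at 3.14 ± 0.07 and 2.91 ± 0.19 (SD, n = 2 each). Cyp1b1, the P450 of this battery best known from blood vessels, measured 5.39 and 5.40 in the vehicle group against 5.59 and 5.61 in the clothianidin group, so the arrays of each group nearly coincided and the groups did not overlap. Its log2 difference was small, 0.20 with an interval of -0.41 to 0.82. The intervals of these 3 genes do not exclude a change of 1.5-fold in at least 1 direction.

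The promoters of 3 AHR-controlled members are shown because they carry the letters GCGTG, the core that AHR and its partner ARNT bind, while their transcripts were not apart between the groups. The windows are the 250 bases before each start in RefSeq build GRCm38.p6, at chr9:57697363-57697612 on the plus strand for Cyp1a1, chr17:79715062-79715311 on the minus strand for Cyp1b1 and chr13:74292332-74292581 on the minus strand for Ahrr. Capitals mark the core on either strand, so it reads CACGC where it lies on the opposite strand.
Cyp1a1: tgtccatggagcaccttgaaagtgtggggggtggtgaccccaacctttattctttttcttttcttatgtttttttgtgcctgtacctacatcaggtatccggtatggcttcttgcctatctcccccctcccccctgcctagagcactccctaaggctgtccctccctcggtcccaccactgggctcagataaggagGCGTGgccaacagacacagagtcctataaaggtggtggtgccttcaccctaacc
Cyp1b1: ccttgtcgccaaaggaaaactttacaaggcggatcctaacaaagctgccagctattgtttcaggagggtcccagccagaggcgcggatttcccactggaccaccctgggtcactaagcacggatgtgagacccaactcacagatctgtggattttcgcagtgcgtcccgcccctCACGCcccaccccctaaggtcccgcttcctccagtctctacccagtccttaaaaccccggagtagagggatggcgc
Ahrr: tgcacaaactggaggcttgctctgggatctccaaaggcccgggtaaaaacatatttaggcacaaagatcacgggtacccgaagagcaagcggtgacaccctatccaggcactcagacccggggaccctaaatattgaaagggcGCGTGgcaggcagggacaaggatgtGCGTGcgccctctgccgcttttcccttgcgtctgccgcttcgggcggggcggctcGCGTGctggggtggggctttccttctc
Cyp1a1 and Cyp1b1 had 1 match each and Ahrr had 3, while the window of Cyp1a2 had 0. Of the 42 measured members 35 had an entry in the promoter table, and 12 of these (34.3%) held the core in at least 1 window, against 30.9% of all 27025 genes of the table and 28.2% of its windows. The nuclear receptor motif AGGTCA was held by 4 of the 35 (11.4%) against 15.8% of all genes. A strict form of the core of the antioxidant response element, TGACNNNGC, was held by 2 (5.71%) against 11.5%. Looser forms of that element were not searched, so members outside these 2, Gstp1 among them, are not shown to lack it. TGAGTCA, the motif marked in Gstp1, was held by 5 of the 35 (14.3%) against 5.16% of all genes. It was picked after the Gstp1 window had been seen and the 5 include Gstp1, so this share tests nothing. The other 4 holders, Aox1, Aox4, Cyp3a13 and Nr1i3, were not apart between the groups. Abcg2, Cyp2b9, Cyp3a11 and Fmo2 were the 4 members with AGGTCA. These are letter matches in short windows and say nothing of binding.

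Targets of CAR and PXR did not move together. Cyp2b10, the main CAR target of mouse liver, stood at 3.50 and 4.50 among vehicle arrays and at 3.53 and 3.52 among clothianidin arrays, so its log2 difference of -0.47 rested on vehicle replicate 9 and was 0.02 without it. Cyp2c38, a P450 of the 2C family, had vehicle values of 3.36 and 3.60 and clothianidin values of 4.02 and 3.99. It had no overlap and the second smallest limma p among the members, at a log2 difference of 0.53 with an interval of -0.10 to 1.15, but all 4 values lay below the median of the olfactory receptor probe sets. Cyp3a11, the main PXR target of mouse liver, had a log2 difference of -0.11, the related Cyp3a13 -0.03 and Cyp3a41a 0.40. For Cyp2b9 the difference was -0.38, for the coumarin hydroxylase gene Cyp2a5 it was 0.13, for Cyp2c37 it was -0.14 and for Cyp2e1, the ethanol-inducible P450, it was 0.01. Signs were mixed, and the P450 subfamilies share much sequence, so single probe sets may read more than 1 of them.

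**Figure D2:**
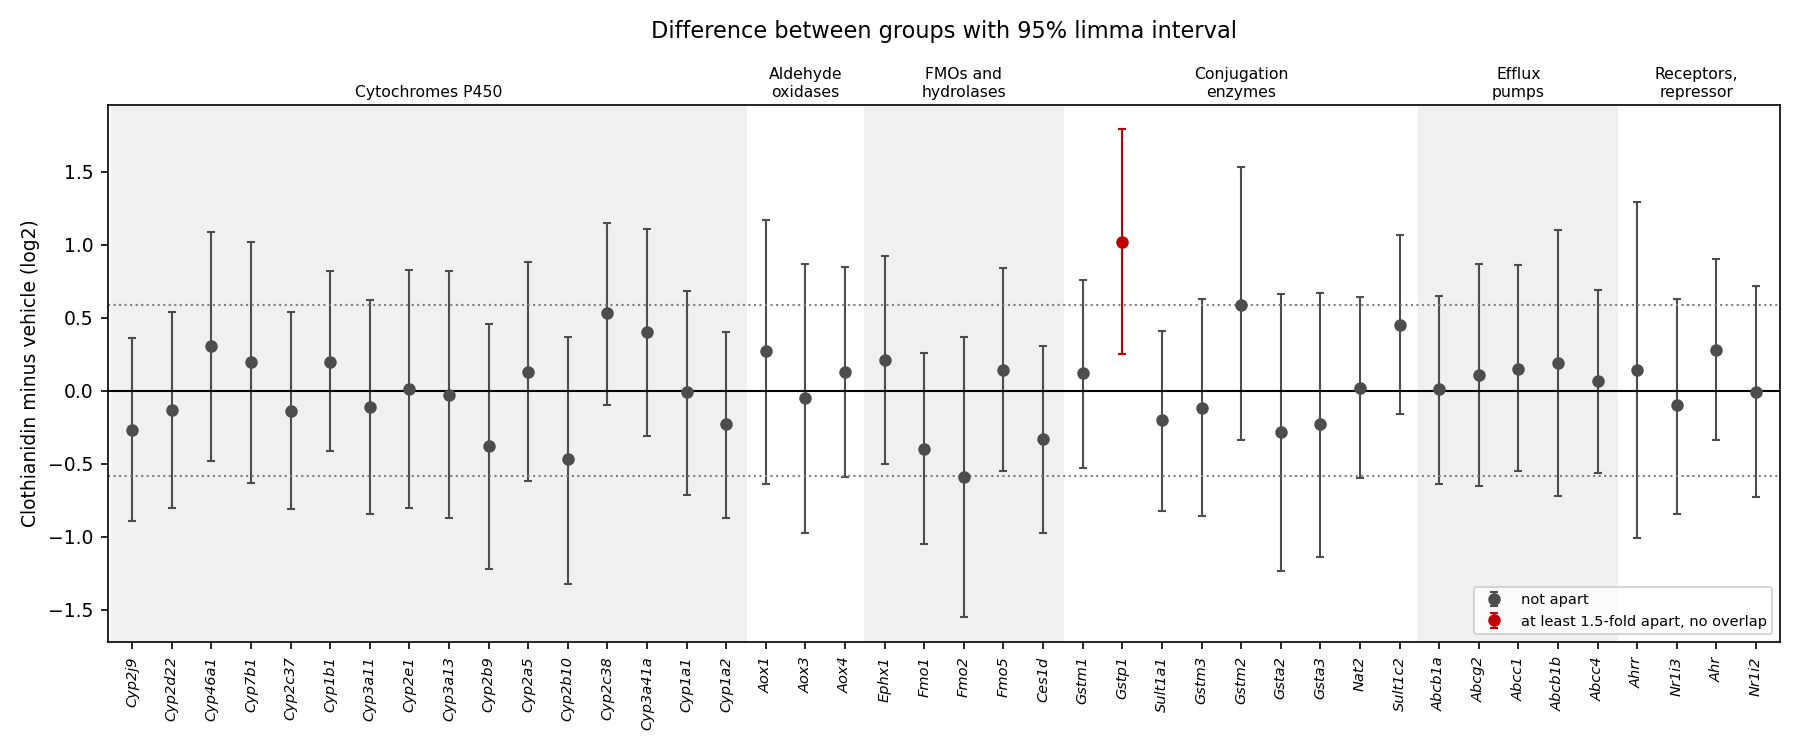
Log2 difference, clothianidin minus vehicle, for each of the 42 members with its 95% limma interval, and dotted lines at 1.5-fold in either direction. Gstp1 (red, 1.02) is the one member at least 1.5-fold apart without overlap, and 26 of the 42 intervals lie within 2-fold in both directions.

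The aldehyde oxidases, cytosolic molybdenum enzymes that reduce the nitro group of neonicotinoids, overlapped between the groups for all 3 members. Only 30.6% of all probe sets had groups free of overlap. Aox1, the family member best known from liver, measured 6.31 and 5.72 in the vehicle group against 6.78 and 5.78 in the clothianidin group. Each group had 1 higher and 1 lower array, and the log2 difference was 0.27 with an interval of -0.64 to 1.17. Aox3 stood at 4.68 and 5.65 among vehicle arrays and at 4.78 and 5.45 among clothianidin arrays, a difference of -0.05 with an interval of -0.97 to 0.87. Aox4, which is best known from Harderian gland and skin, had vehicle values of 5.01 and 4.55 and clothianidin values of 4.67 and 5.15, a difference of 0.13 with an interval of -0.59 to 0.85. With 1 array left out each of the 3 differences took both signs, from -0.23 to 0.77 for Aox1, from -0.54 to 0.44 for Aox3 and from -0.11 to 0.37 for Aox4. The direction was therefore not fixed by these arrays, and the 3 genes are paralogs whose probes may share signal.

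Flavin monooxygenases, which add oxygen to nitrogen and sulfur atoms, had their larger differences on the lower side. Fmo1 measured 9.00 and 8.61 in the vehicle group against 8.40 and 8.42 in the clothianidin group, without overlap. The log2 difference was -0.40 with an interval of -1.05 to 0.26, and -0.20 without vehicle replicate 7. Fmo2 averaged 8.59 ± 0.84 in the vehicle group (SD, n = 2), with its highest value, 9.19, on vehicle replicate 9. The clothianidin arrays were at 7.77 and 8.24, and vehicle replicate 7 lay between them. Its difference of -0.59 rested on vehicle replicate 9, since it was 0.00 without that array and -1.19 without vehicle replicate 7. Fmo5 had a difference of 0.14. Ephx1, the microsomal epoxide hydrolase gene, was at 9.57 ± 0.31 and 9.78 ± 0.31 (SD, n = 2 each), and the carboxylesterase gene Ces1d was at 5.11 ± 0.21 and 4.78 ± 0.09 (SD, n = 2 each). This class of 5 had 2 higher and 3 lower members, where 48.1% of all probe sets were higher. At least 1.5-fold apart without overlap were 0, against 7.61% of all probe sets.

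Conjugation enzymes had 5 of 9 (55.6%) higher, against 48.1% of all probe sets, and a median log2 difference of 0.02. Gstp1 was the 1 member apart (11.1%), against 7.61% of all probe sets. Gstm1, a mu-class glutathione transferase that is strong in astrocytes, had vehicle values of 15.09 and 15.26 and clothianidin values of 15.14 and 15.44. The groups overlapped, with a difference of 0.12 and an interval of -0.53 to 0.76. Gstm2 measured 6.44 and 5.74 in the vehicle group against 6.19 and 7.18 in the clothianidin group, where replicate 7 again stood above the rest. Its difference of 0.59 was 0.10 without that array, and the groups overlapped. Gstm3 had a difference of -0.12, and the alpha-class genes Gsta2 and Gsta3 had -0.28 and -0.23, each high on vehicle replicate 9 at 6.10 and 5.89.

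Sulfotransferases and the acetyltransferase stayed close together between arrays. Sult1c2 stood at 3.97 and 4.08 among vehicle arrays and at 4.45 and 4.51 among clothianidin arrays, with no overlap and a difference of 0.45 (interval -0.16 to 1.07), at the level of the olfactory receptor probe sets. Sult1a1, which sulfates simple phenols, had vehicle values of 6.71 and 6.63 and clothianidin values of 6.44 and 6.49, also with no overlap and a difference of -0.20 (interval -0.82 to 0.41). Nat2, an arylamine acetyltransferase gene, was at 4.82 ± 0.11 and 4.84 ± 0.01 (SD, n = 2 each). Both sulfotransferases were thus separated by group but by less than 1.5-fold and in opposite directions.

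The glutathione transferase genes outside the set had further differences that ran with clothianidin replicate 7. Mgst1, a membrane-bound glutathione transferase, measured 9.93 and 9.84 in the vehicle group against 10.13 and 11.00 in the clothianidin group. Gsto1, the omega-class enzyme, stood at 7.32 and 6.96 among vehicle arrays and at 7.47 and 8.30 among clothianidin arrays. Without replicate 7 their log2 differences went from 0.68 to 0.25 and from 0.74 to 0.33. Gstm6 lay on the other side, with 5.67 and 4.69 for vehicle against 4.50 and 4.49 for clothianidin. Its mean, 4.84, lay under the 95th percentile of olfactory receptor probe sets. Replicate 7 held the highest value of 11 of the 22 glutathione transferase genes measured from the lists (50%), against 21.1% of all probe sets, a grouping made after the values had been seen. Purkinje cell markers, summed, were also highest on that array at 19.76, against 19.22 to 19.52 on the others. The brightest markers weigh most in such sums. Car8, Pcp2, Pcp4, Ppp1r17 and Pvalb were highest there, but Rora, Slc1a6 and Gad1 were lowest there, and Calb1 and Foxp2 were highest on other arrays. Summed oligodendrocyte markers were lowest there at 17.47, against 17.66 to 17.90, though Aspa was highest there. Summed astrocyte and Bergmann glia markers were lowest there as well at 17.47, against 17.57 to 17.78. Of these, Slc1a3 and Gja1 were lowest there, while Hopx, S100b and Gjb6 were highest there. The part of these cell types in the differences was not tested.

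**Figure D3:**
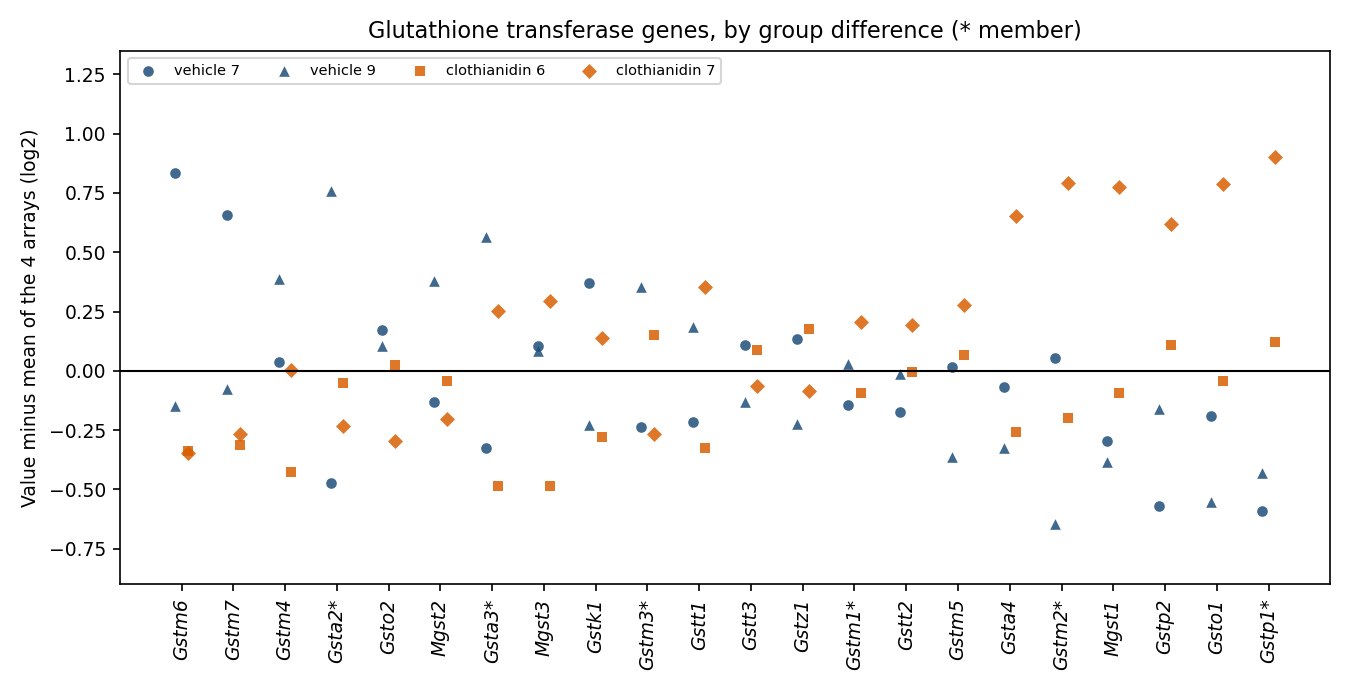
Values of 22 glutathione transferase genes on each array, as the log2 deviation from the gene's mean over the 4 arrays, ordered by the group difference, with members marked by an asterisk. Clothianidin replicate 7 (diamonds) holds the highest value of 11 of the 22 genes, among them Gstp1, Gsto1, Gstp2, Mgst1 and Gstm2 at the right.

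Efflux pumps of the ABC family overlapped between the groups for all 5 members, and their differences were small. Groups free of overlap were seen for 30.6% of all probe sets, so overlap was common on the array. Abcb1a, the P-glycoprotein gene of mouse brain capillaries, had vehicle values of 11.27 and 10.93 and clothianidin values of 11.13 and 11.08, a log2 difference of 0.01 with an interval of -0.64 to 0.65. Both clothianidin values lay between the vehicle values. Abcg2, the breast cancer resistance protein gene of the same vessels, measured 9.71 and 8.92 in the vehicle group against 9.44 and 9.41 in the clothianidin group, a difference of 0.11 with an interval of -0.65 to 0.87. Again the clothianidin arrays were close to each other and lay inside the vehicle range. The second P-glycoprotein gene, Abcb1b, stood at 7.18 and 7.54 among vehicle arrays and at 8.10 and 7.00 among clothianidin arrays, so its highest and its lowest value both came from the clothianidin group. Its difference was 0.19, and -0.36 without clothianidin replicate 6.

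Among the multidrug resistance-associated pumps, Abcc1 had vehicle values of 7.86 and 8.44 and clothianidin values of 8.24 and 8.37, a difference of 0.15 with an interval of -0.55 to 0.86. Abcc4 measured 7.39 and 7.16 in the vehicle group against 7.32 and 7.36 in the clothianidin group, a difference of 0.07 with an interval of -0.56 to 0.69. For both genes the clothianidin values lay within the vehicle range. All 5 pump means were higher with clothianidin, by 0.01 to 0.19, where 48.1% of all probe sets were higher. With 1 array left out each of the 5 differences took both signs. The summed level of vessel markers was lowest on the same array as 3 of the 5 pumps. The log2 of the summed level of 14 endothelial markers was 15.91 and 15.17 on vehicle replicates 7 and 9. With clothianidin it was 15.44 and 15.42. Vehicle replicate 9 was thus lowest for this sum and for Abcb1a, Abcg2 and Abcc4. Slc2a1, the brightest of these markers, weighs most in the sum. Pecam1, Cdh5, Kdr and Emcn were also lowest on vehicle replicate 9. Cldn5, Ly6c1, Itm2a, Tek and Esam were lowest on clothianidin replicate 6. Flt1 and Erg were lowest on clothianidin replicate 7, and Tie1 and Vwf on vehicle replicate 7. Summed pericyte and smooth muscle markers, 12 in all and led by Vtn, were lowest on vehicle replicate 9, at 14.55 against 14.94 to 15.12. Many of them, such as Pdgfrb and Myh11, were not lowest there. The part of vessel content in the pump values was not tested.

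The receptors that control this system and the AHR repressor had 2 higher and 2 lower members. At least 1.5-fold apart without overlap were 0 of 4, against 7.61% of all probe sets. Ahr, which encodes the dioxin receptor, stood at 4.77 and 4.76 among vehicle arrays and at 4.94 and 5.15 among clothianidin arrays. The groups did not overlap, with a log2 difference of 0.28 and an interval of -0.34 to 0.90, at values in the range of the olfactory receptor probe sets. Ahrr, the AHR repressor gene and itself an AHR target, had vehicle values of 5.66 and 7.16 and clothianidin values of 6.17 and 6.93. The vehicle arrays enclosed the clothianidin arrays, the difference was 0.14, and its interval of -1.01 to 1.29 was the widest of all members. Nr1i2, the gene of PXR, measured 4.54 and 4.89 in the vehicle group against 4.43 and 4.99 in the clothianidin group, a difference of -0.01 with an interval of -0.73 to 0.72. Nr1i3, the gene of CAR, stood at 5.92 and 5.32 among vehicle arrays and at 5.71 and 5.32 among clothianidin arrays, a difference of -0.10 with an interval of -0.84 to 0.63.

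Single arrays carried most of the member differences, a trait that most probe sets of the array shared. With each array left out in turn, 12 of 42 members kept the sign of their difference and 30 did not. Of all probe sets 44.4% kept it. The 12 were Gstp1, Gstm2, Sult1a1, Sult1c2, Cyp1a2, Cyp1b1, Cyp2c38, Cyp2j9, Cyp3a41a, Ahr, Fmo1 and Ces1d. Groups that do not overlap cannot change sign in this way, which covers 10 of the 12 and 30.6% of all probe sets. Only Gstm2 and Cyp3a41a kept their sign although their groups overlapped. For 33 members (78.6%) the gap between the arrays of one group was larger than the difference between the groups, as it was for 79.7% of all probe sets. The median gap of the members was 0.42 between the vehicle arrays and 0.31 between the clothianidin arrays, where it was 0.32 and 0.31 over all probe sets. Members at least 1.5-fold apart without overlap numbered 9 (21.4%) without vehicle replicate 7, against 18.6% of all probe sets. Without vehicle replicate 9 they numbered 5 (11.9%), against 14.5%. They were 2 (4.76%) without clothianidin replicate 6, against 13.2%, and 6 (14.3%) without clothianidin replicate 7, against 17.4%. Gstp1 was among them in each of these 4 cases. Its groups do not overlap, so only the fold part of the rule could fail there. Its lowest log2 difference with 1 array left out, 0.63, was just above the 1.5-fold limit. The interval of the difference lay within 2-fold in both directions for 26 members (61.9%), against 59.8% of all probe sets, so for the other members these arrays do not exclude a 2-fold change.

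**Figure D4:**
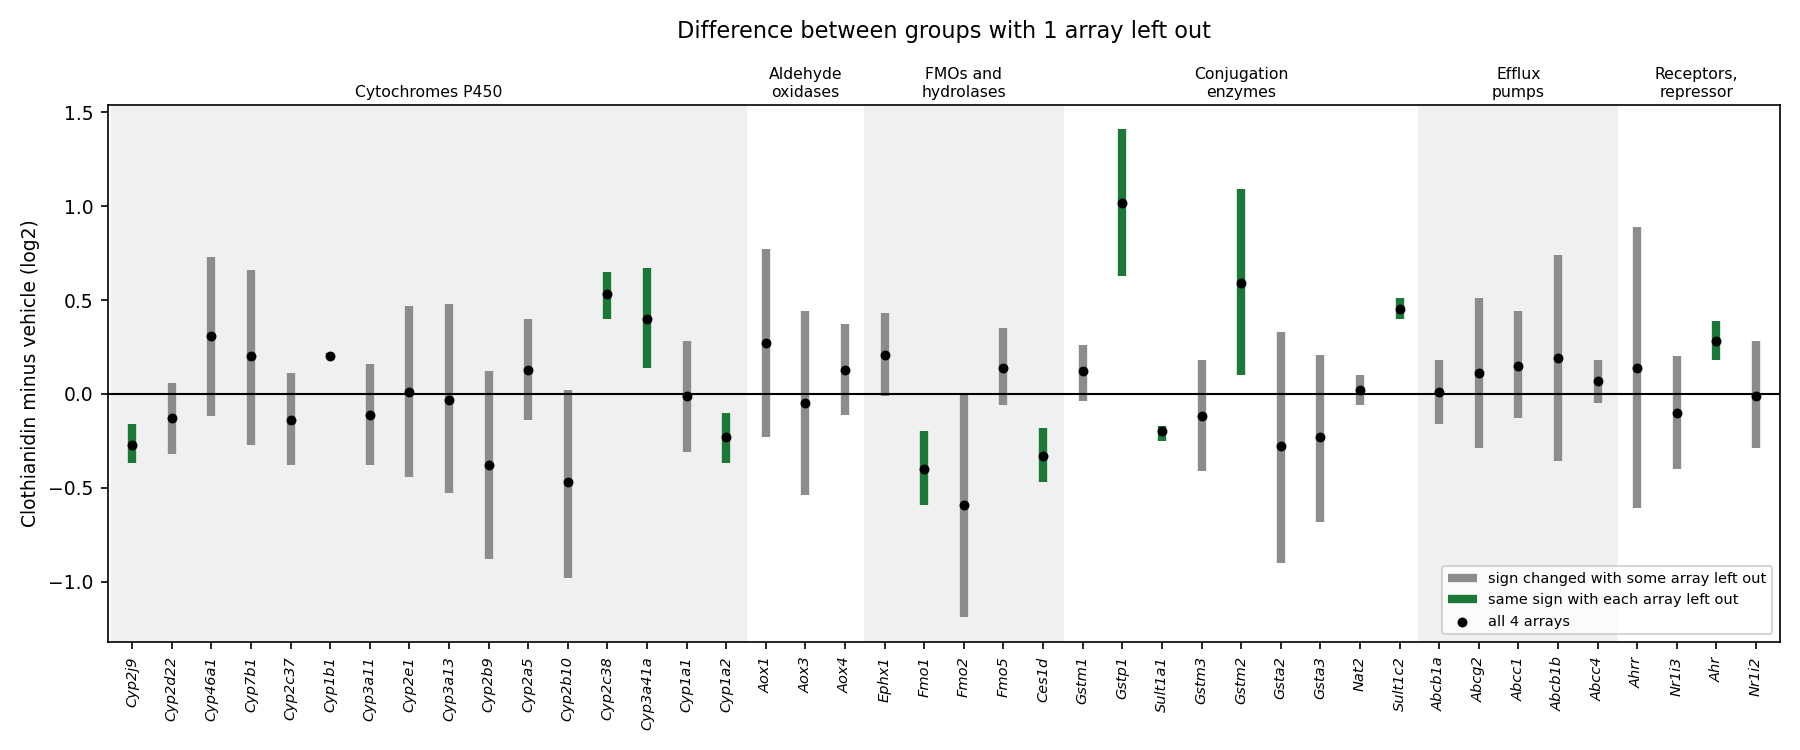
Range of each member's log2 difference, clothianidin minus vehicle, when 1 of the 4 arrays is left out (bars), with the value from all arrays as a black point. The 12 green bars keep their sign, and Gstp1 ranges from 0.63 to 1.41, while the 30 grey bars reach zero or cross it.

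Other genes of the pathway, a list of 126 of which 113 were measured, gave a like picture. With limma 0 of 113 passed the adjusted threshold, and 9 (7.96%) were at least 1.5-fold apart without overlap, against 7.61% of all probe sets. Of these, 7 were higher with clothianidin, where 4.04% of all probe sets were, and 2 were lower, where 3.57% were. The 9 became 14 without clothianidin replicate 6, 16 without vehicle replicate 9 and 21 without either of the other arrays. The share over all probe sets rose as well, from 7.61% to between 13.2% and 18.6%. Among 21 other P450 genes and their electron partners 0 were apart, against 7.61% of all probe sets. Among 32 other conjugation enzymes 5 (15.6%) were apart, against 7.61% of all probe sets. Of them 3 were higher, the transferase genes Gstp2, Mgst1 and Gsto1. The 2 lower were Gstm6 and Papss2, which makes the sulfate donor, with a log2 difference of -0.67. Among 22 other oxidoreductases and hydrolases 1 (4.55%) was apart, against 7.61% of all probe sets. It was Pon2, an intracellular lactonase gene, with 11.40 and 11.44 for vehicle against 12.13 and 11.92 for clothianidin. Its groups were each narrow and well separated, at a difference of 0.60 with an interval of -0.02 to 1.23. The NQO1 gene Nqo1, another AHR and NRF2 target, had a difference of -0.01.

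Among 17 other regulators 13 (76.5%) had a higher mean with clothianidin, against 48.1% of all probe sets. Their median log2 difference was 0.27, against -0.01 over all probe sets, and no test was run on this list. By the 1.5-fold rule 1 of the 17 (5.88%) was apart, against 7.61% of all probe sets. The AHR partner gene Arnt was that one, with 8.32 and 8.55 for vehicle against 9.23 and 8.85 for clothianidin, a log2 difference of 0.60 with an interval of -0.06 to 1.27. Tiparp, an AHR target that acts back on AHR, had a difference of 0.11. Among 21 other transporters 2 (9.52%) were apart, both higher, against 7.61% of all probe sets. Abca1, which exports cholesterol to apolipoproteins, had vehicle values of 9.38 and 9.26 and clothianidin values of 9.85 and 10.26, a difference of 0.74 with an interval of 0.08 to 1.39. Slc47a1, a proton-coupled exporter of organic cations, measured 5.52 and 4.33 in the vehicle group against 5.95 and 5.83 in the clothianidin group. Its difference of 0.96 was 0.37 without vehicle replicate 9. The mean level of Slc47a1, 5.41, lay under the 95th percentile of olfactory receptor probe sets. The uptake transporter Slco1a4 of brain capillaries had a difference of -0.02, and Slco1c1, which carries thyroid hormone there, had -0.08. All genes named from this list had a limma adjusted p of 0.997.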

How the data were processed

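Total RNA of 4 cerebellum samples was hybridised to Affymetrix whole-transcript arrays, 1 per sample, per the labels' protocols. The authors deposited log2 summaries of probe sets, and the submitters' processing notes name RMA. Settings and version are not given in the sources used here, and the log base was taken as 2. Scan dates were not given, so no batch was tested. Array medians were 6.49 to 6.54, and the small number of arrays limits the precision.

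Probe sets were named from the platform annotation, and gene identifiers in the RefSeq table of GRCm38.p6 changed 0 symbols. Of 22206 probe sets 19572 had 1 symbol and 2634 had none. The highest mean over the arrays chose the probe set of a gene. All measured members are named. Values in each array are given for members that are apart and for all aldehyde oxidases, pumps and receptors, with those of smallest p in each class. Other pathway genes are named where apart, with a few reference genes added after their values were seen. The members and lists were chosen with earlier results of these data known.

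In R 4.3.3, limma 3.58.1 (lmFit, eBayes) was run on all probe sets with Benjamini-Hochberg adjustment at 0.05, and the procedure was tested on simulated data. The median standard error was 0.298 on the log2 scale. Alternatives were other scalings, filters, priors, folds and leaving out each array. Promoter windows were searched on both strands.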

Additional observations from a re-analysis of the deposited data

How the results depend on the processing

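The count of probe sets passing limma, 0 of 22206, was also 0 with median centring, further quantile normalization, both filters on level, both other priors and 1 probe set per gene, and 940 probe sets had an unadjusted p under 0.05. A linear model without moderation gave 8, all with identical rounded values within both groups and 0 of them members. With 1 array left out the count was 0 to 1, and the 1 was Ttr without clothianidin replicate 6, where the lone clothianidin array is assumed to vary like the others. The members at least 1.5-fold apart numbered 1 with all arrays and 2 after quantile normalization, where Cyp2c38 joined Gstp1. They numbered 5 (11.9%) when a log2 difference of 0.32 was enough, against 20.5% of all probe sets, and 1 (2.38%) at 2-fold, against 0.928%. With 1 array left out they numbered 2 to 9 (4.76% to 21.4%), against 13.2% to 18.6%. The median log2 difference of the members, 0.02, was 0.11 with the filter at the median level, which leaves 17 members, and -0.04 to 0.13 with 1 array left out. The count over the other pathway genes was 9, and 14 to 21 with 1 array left out, a check chosen after seeing the data. Of 252 values of single members under other scalings or with 1 array left out, 5 moved by more than 1 SD between replicates. All 5 were under other scalings. Leaving out 1 of 2 arrays cannot move a difference by more than this SD, so that mark does not test the values with 1 array left out. The sign of Gstp1 turned in 0 cases, and leaving out 1 array could not turn it because its groups do not overlap. Averaging the probe sets of a gene changed nothing because each member had 1. No paired analysis was possible because the groups share only the number 7. With 2 arrays a group, changes below about 2-fold are poorly bounded, and signal over background is not known.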

Other observations

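Beyond the members, their gene families and the related Ugt and Slco families were surveyed over the whole array, a choice made after the members' values had been seen, and described without a test. Of 96 Cyp genes 41 (42.7%) were higher with clothianidin, against 48.1% of all probe sets, and 55 were lower. At least 1.5-fold apart without overlap were 5 (5.21%), against 7.61% of all probe sets. Apart and lower were 3.57% of all probe sets and all 5 of these genes. They were Cyp4b1 at 5.80 and 5.73 among vehicle arrays against 4.89 and 5.06 among clothianidin arrays, Cyp3a44 at 6.03 and 6.09 against 5.57 and 5.26, and Cyp3a25, Cyp2c70 and Cyp2j11 with log2 differences of -0.68, -0.66 and -0.59. Of 11 glucuronosyltransferase (Ugt) genes 3 (27.3%) were apart and lower, against 3.57% of all probe sets. These were Ugt3a1, Ugt2b35 and Ugt2b37, with -0.74, -0.61 and -0.69. Apart from Cyp3a44 these genes had means under the 95th percentile of olfactory receptor probe sets, so how much of their signal is transcript is not known.

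Of 24 glutathione transferase (Gst and Mgst) genes 5 (20.8%) were apart, against 7.61% of all probe sets. Gstp1, Gstp2, Mgst1 and Gsto1 were higher and Gstm6 was lower. Of 48 ABC transporter genes 3 (6.25%) were apart, again against 7.61% of all probe sets. Abcf1, a translation factor of the family that is no pump, stood at 6.21 and 5.69 among vehicle arrays and at 7.17 and 7.08 among clothianidin arrays, and Abcb6, which is linked to porphyrin transport, was at 5.65 and 5.08 against 4.27 and 4.30. The third was Abca1. Gstm6 and Abcb6 had means of 4.84 and 4.83, under the 95th percentile of olfactory receptor probe sets. Of 14 organic anion transporter (Slco) genes 11 were lower, 21.4% were higher and 0 were apart. Of 21 sulfotransferase genes 14 were lower and 33.3% were higher, where 48.1% of all probe sets were higher. In this family 1 gene (4.76%), Sult3a2, was apart, against 7.61% of all probe sets. Its values were 5.19 and 7.19 for vehicle against 5.02 and 4.91 for clothianidin. Of 17 carboxylesterase and 6 flavin monooxygenase genes 0 were apart. All the genes named here had a limma adjusted p of 0.997.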
